A study of Caenorhabditis elegans with 2 samples.

Results

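The genes described are the POU factor genes ceh-6, ceh-18 and unc-86 and the genes sem-4 and egl-27, whose products act with SOX-2 and CEH-6 when a C. elegans cell changes its identity. They were taken by name, and all 5 were found among the 19973 nuclear protein-coding genes of the annotation. SOX-2 binding was mapped by chromatin immunoprecipitation and sequencing (ChIP-seq) in whole late embryos of strain RW12244, given an age of 3.5 hours and synchronized by egg bleaching. Both biological replicates carry st12244, a TY1, EGFP and 3xFLAG tag placed by CRISPR on the endogenous sox-2 gene on X, and the tagged protein was pulled down with an antibody to GFP. There was 1 group, with no second genotype, stage or treatment and no control analysed here. Each value therefore describes where peaks lay, and an average over all cells of the embryo.

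SOX proteins bind DNA through an HMG box and often share their sites with POU proteins, which bind through a POU-specific domain and a homeodomain. In mammals the pairing of Sox2 with Oct4 is known for its part in stem cell identity. In C. elegans, the rectal epithelial cell called Y leaves the rectum in the larva and becomes the motor neuron PDA. The conversion requires sox-2, ceh-6, sem-4 and egl-27. The embryos studied here are younger than that event.

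SOX-2 peaks that passed the authors' threshold lay at egl-27 and at unc-86, and at none of ceh-6, ceh-18 and sem-4. A peak was credited to a gene when its summit, the highest point, fell inside the gene or within 10 kb of it. The pooled list made from both replicates ranks 8486 nuclear peaks. A peak is called thresholded where it is also in the authors' shorter list of 677, 660 of them nuclear, whose members all had an irreproducible discovery rate (IDR) of at most 1%. A further 96 ranked peaks with such an IDR are not in that list and were not counted as thresholded. By this rule 2 of the 5 genes had a thresholded summit, against 2691 of all 19973 genes (13.5%), and 4 of 5 had a ranked summit, against 77.5% of all genes. The same 2 genes had a thresholded summit in the conservative list, in which 13.3% of genes had one, and in the list of each replicate alone, at 11.4% of genes for replicate 1 and 11.5% for replicate 2. The median over all genes was 0 thresholded and 2 ranked summits, and over the 5 genes it was also 0 and 2. In all, 23 ranked summits were counted, 15 at egl-27, 4 at ceh-6, 2 each at unc-86 and sem-4 and 0 at ceh-18. Of these, 6 were thresholded, against 7.78% of all nuclear ranked summits. The lists hold no read counts, so the depth is unknown, and a gene without a thresholded summit was not shown to lack SOX-2.

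**Figure D1:**
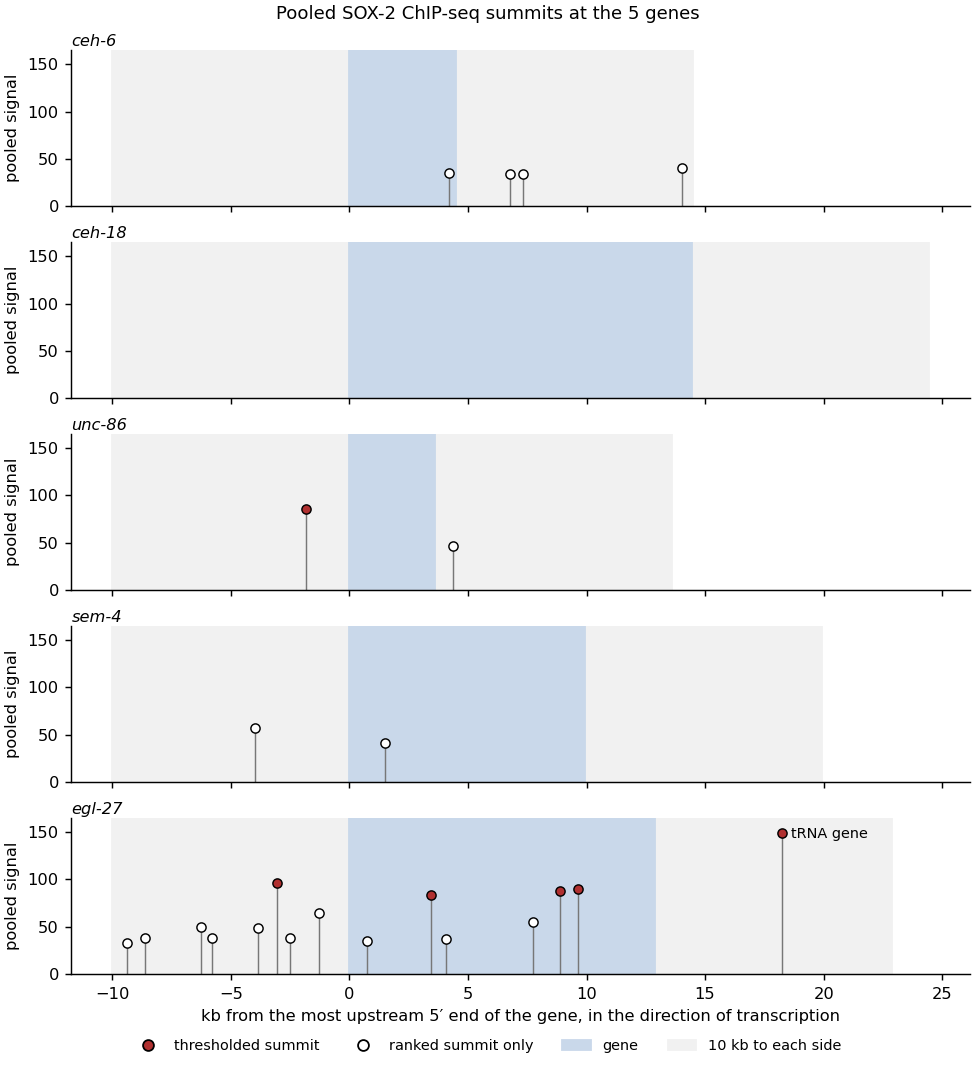
Pooled peak signal (y axis, the authors' value) of each ranked summit against its distance in kb from the most upstream 5′ end of the gene (x axis), with 1 panel per gene. Filled points are thresholded summits, and 5 of the 6 lie in the egl-27 panel, where the highest, at 149.3, falls in a tRNA gene.

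The sequence within 50 bp of each of the 6 thresholded summits is shown because these are the sites on which the results turn. They are read from the NCBI WBcel235 genome, the same assembly as ce11, on the forward strand. Capitals mark the SOX core (CATTGT or CTTTGT) and the core of the tRNA B box (GTTCGANTC), the internal promoter element of tRNA genes, on either strand. The POU octamer (ATGCAAAT or ATGCTAAT) was searched too and was in none of them.
egl-27, 3056 bp upstream, chrII:6831902-6832002: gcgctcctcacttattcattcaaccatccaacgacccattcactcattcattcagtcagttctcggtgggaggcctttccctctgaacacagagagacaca
egl-27, intron, 3454 bp past the most upstream 5′ end, chrII:6838412-6838512: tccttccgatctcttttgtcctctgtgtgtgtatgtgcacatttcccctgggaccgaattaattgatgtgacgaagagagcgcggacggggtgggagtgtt
egl-27, intron, 8889 bp past it, chrII:6843847-6843947: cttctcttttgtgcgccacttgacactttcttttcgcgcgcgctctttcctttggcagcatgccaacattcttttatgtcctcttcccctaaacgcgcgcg
egl-27, intron, 9622 bp past it, chrII:6844580-6844680: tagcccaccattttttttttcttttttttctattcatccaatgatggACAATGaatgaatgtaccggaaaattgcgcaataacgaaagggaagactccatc
egl-27, 5329 bp past the 3′ end, in a tRNA gene, chrII:6853187-6853287: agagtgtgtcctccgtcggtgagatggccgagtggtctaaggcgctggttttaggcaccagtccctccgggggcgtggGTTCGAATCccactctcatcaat
unc-86, 1839 bp upstream, chrIII:8218125-8218225: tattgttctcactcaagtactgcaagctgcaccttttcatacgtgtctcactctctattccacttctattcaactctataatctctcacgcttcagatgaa

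No gene of the annotation had more thresholded summits than egl-27. This gene (WBGene00001194, chrII:6835008-6847908, forward strand) codes for a protein related to MTA1, a subunit of the NuRD chromatin remodelling complex, and takes part in embryonic patterning and in the Y-to-PDA conversion. It had 5 thresholded summits inside it or within 10 kb, and was alone at that number. Only its downstream neighbour tbc-6 had 4, all of them shared with egl-27, 39 genes had 3, 285 had 2 and 2365 had 1. The window of egl-27 spans 32.9 kb against a mean of 23.2 kb over all genes, and per 10 kb of window egl-27 had 1.52 thresholded summits, a density reached by 2 genes including itself. Inside the gene body it had 3, as did zfp-1 and kup-1 and no other gene, while 1.04% of all genes had any thresholded summit inside them. With 15 ranked summits it was among 5 genes that had at least as many. The number depended on the list used. In replicate 2 alone egl-27 had 4 thresholded summits and was again the gene with the most, whereas in replicate 1 alone it had 3, and 28 genes had at least that many. In the conservative list 3 genes reached its 4.

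**Figure D2:**
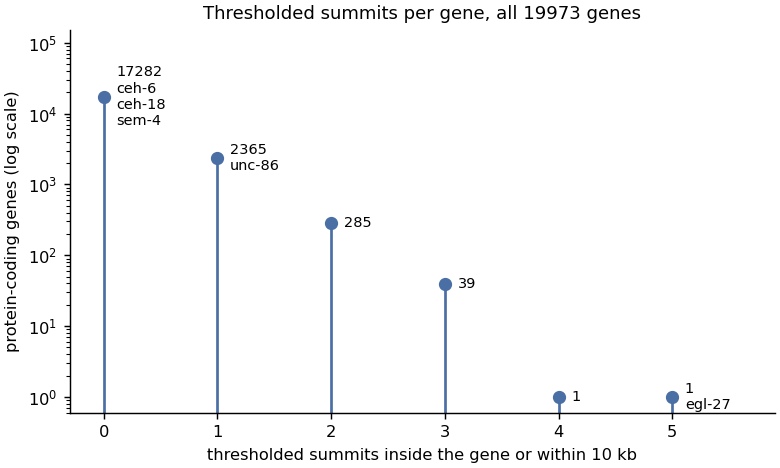
Number of protein-coding genes (y axis, log scale) by the count of thresholded summits inside the gene or within 10 kb (x axis), for all 19973 genes, with the 5 genes named beside their point. The gene egl-27 is the only one at 5, and 17282 genes, ceh-6, ceh-18 and sem-4 among them, are at 0.

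The egl-27 summits lay close together. The 5 thresholded summits spanned 21.3 kb, while the next thresholded summit lay 243 kb away on one side and 60.3 kb on the other. Chromosome II as a whole had 98 thresholded summits, on average 1 per 156 kb. Within the cluster the gaps were 6510, 5435, 733 and 8607 bp. The gene has 14 annotated 5′ ends. Of its 15 ranked summits, 14 were nearer to an egl-27 5′ end than to one of any other protein-coding gene. Among the 14 were 4 of the 5 thresholded ones. The 3 other protein-coding genes that touch the window all lie downstream. For summits upstream of or inside egl-27 the nearest 5′ end was therefore largely set by this layout. Of the 15, 8 lay upstream of the gene, 6 inside it and 1 downstream, and all 6 inside were in introns.

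The upstream thresholded summit lay 3056 bp before the most upstream 5′ end of egl-27 (peak chrII:6831810-6832093). Its signal was 54.1 in replicate 1 and 44.9 in replicate 2 (49.5 ± 6.48, SD, n = 2), and 95.9 in the pooled list with an IDR of 0.0916%. Replicate 1, replicate 2 and the conservative list each kept it past their threshold. The summit falls in exons of a pair of annotated non-coding RNA genes of unstated function, F31E8.18 and F31E8.7, which lie on opposite strands. ChIP-seq has no strand and cannot assign it to either of them.

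The intronic summits were close to the upstream one in pooled signal, and none of the 3 passed in both replicates. The first (peak chrII:6838320-6838603), 532 bp past an internal 5′ end, had a signal of 49.7 in replicate 1 and 37.03 in replicate 2 (43.4 ± 8.93, SD, n = 2), and 83.8 in the pooled list. It passed in replicate 1 and the conservative list and not in replicate 2, where its IDR was 88.0%. The second (peak chrII:6843755-6844038), 1463 bp before the nearest egl-27 5′ end, went the other way, with 31.2 in replicate 1 and 55.6 in replicate 2 (43.4 ± 17.3), and 88.1 in the pooled list. It passed in replicate 2 only, was missing from the conservative list, and with an IDR of 0.982% was the thresholded summit nearest the limit. Its ratio of replicate 2 to replicate 1, 1.78, was above the 95th percentile of all thresholded nuclear summits found in both replicates (1.59; median 0.939). The third (peak chrII:6844488-6844771), 730 bp before the same 5′ end, gave nearly equal values of 42.5 and 44.5 (43.5 ± 1.42, SD, n = 2) and 90.1 in the pooled list. It passed in replicate 2 and the conservative list, with an IDR of 5.46% in replicate 1. These 3 and the upstream summit were all below the median of thresholded nuclear peaks, 103.

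The highest signal in the window was at a tRNA gene. The summit 5329 bp past the 3′ end of egl-27 (peak chrII:6853095-6853378) had 80.2 in replicate 1 and 59.1 in replicate 2 (69.6 ± 14.9, SD, n = 2) and 149.3 in the pooled list, with an IDR of 0.0051%, and passed in every list. It falls in the tRNA gene WBGene00022907, which lies in an intron of C04A2.15, and the nearest protein-coding 5′ end was that of C04A2.15, 1001 bp away. Its sequence held the B box core, which was within 50 bp of 38.5% of thresholded summits inside tRNA genes and of 1.07% of all ranked nuclear summits. Thresholded summits within 500 bp of a tRNA gene made up 17.9% of the nuclear list, against 3.41% of all ranked nuclear summits. The other 5 thresholded summits at egl-27 and unc-86 were at least 8574 bp from any tRNA gene. Without summits near tRNA genes egl-27 had 4, and was still the 1 gene with the most.

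Below the threshold, 10 ranked summits at egl-27 had pooled signals from 33.5 to 64.4. The strongest, 1271 bp upstream of the gene, had 37.4 in replicate 1 and 25.8 in replicate 2 (31.6 ± 8.19, SD, n = 2) and an IDR of 5.79%, and so was the nearest to the limit from outside. Of the 15 ranked summits, 12 had a summit within 100 bp in both replicates, 2 in replicate 1 only and 1 in replicate 2 only. Replicate 1 alone ranked 29 summits in the window, with signals from 13.7 to 80.2 and a median of 19.5. Replicate 2 alone ranked 21, from 12.3 to 59.1 with a median of 23.7.

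At unc-86 the thresholded summit gave nearly equal signals in the replicates. This gene (WBGene00006818, chrIII:8212740-8216336, reverse strand) codes for a POU factor of the kind known in vertebrates as Brn3, and sets the identity of touch receptor and other neurons. The summit lay 1839 bp upstream of its most upstream 5′ end (peak chrIII:8218033-8218316), with 45.3 in replicate 1 and 45.5 in replicate 2 (45.4 ± 0.102, SD, n = 2). It had 85.65 in the pooled list with an IDR of 0.306%. All 4 thresholded lists held it, each replicate's included. Its pooled signal was the 617th highest of the 8486 ranked nuclear summits and below the thresholded median of 103. The summit is nearer to another gene: it lay 44 bp upstream of the 5′ end of C30A5.16, which is read on the forward strand, away from unc-86. It also fell in the windows of C30A5.10 and mob-4, and by the nearest 5′ end unc-86 had no thresholded summit. The next thresholded summit on the chromosome was 88.2 kb from unc-86. A further ranked summit, 753 bp past the 3′ end, had 29.9 in replicate 1 and 12.9 in replicate 2 (21.4 ± 12.1), with 46.4 in the pooled list and an IDR of 67.6%. It held CATTGT.

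**Figure D3:**
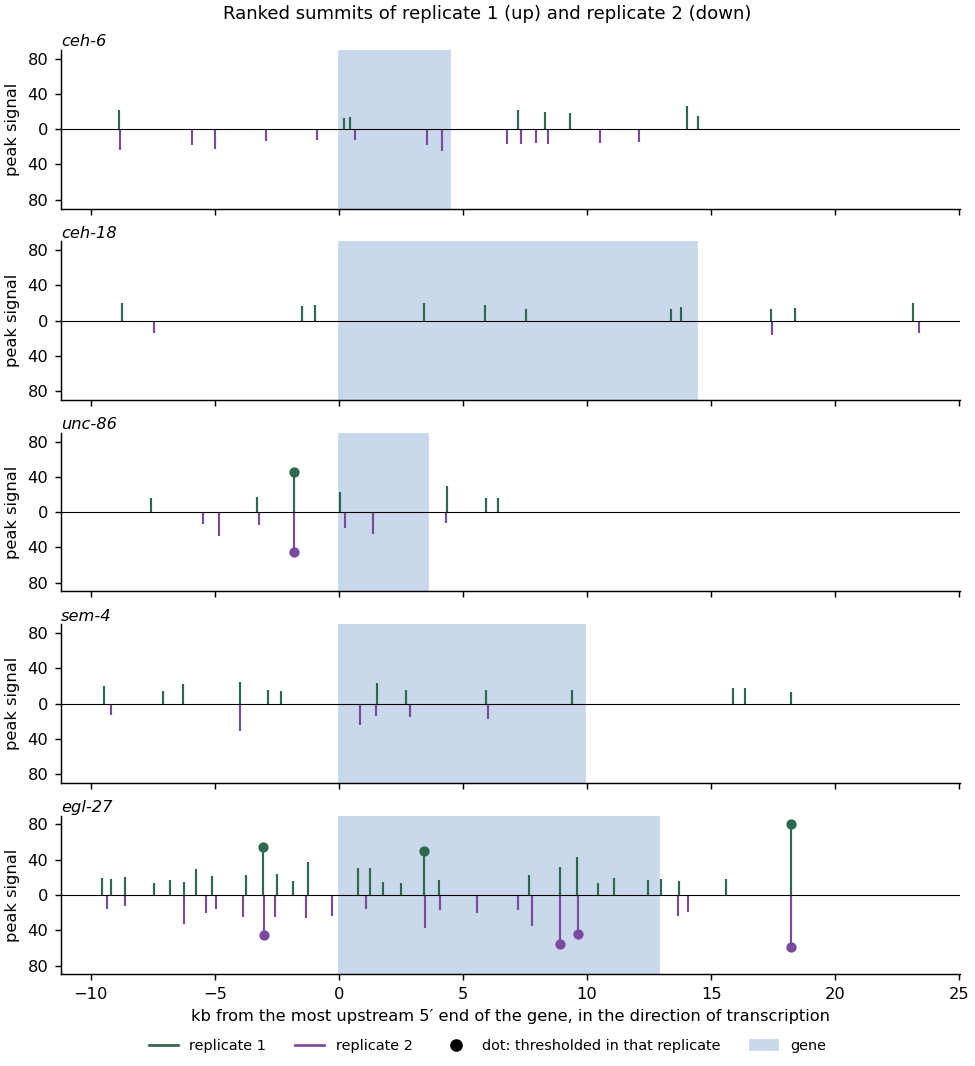
Peak signal of every ranked summit in each replicate (replicate 1 up, replicate 2 down) against its distance in kb from the most upstream 5′ end of the gene, with 1 panel per gene and a dot where the summit is thresholded in that replicate. The unc-86 summit reaches 45.3 and 45.5, while no summit at ceh-6, ceh-18 or sem-4 exceeds 30.7.

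The remaining POU genes had weak summits or none in the pooled list. The gene ceh-18 (WBGene00000441, chrX:3843367-3857797, reverse strand), known for its part in gonadal sheath cells and in the meiotic arrest of oocytes, had no ranked summit in a window of 34.4 kb. The nearest lay just outside, 10.2 kb upstream, with a signal of 40.8, and was closest to the homeobox gene lim-4. The nearest thresholded one was 39.9 kb away. In the replicates themselves, where 97.5% of genes had a ranked summit for replicate 1 and 97.7% for replicate 2, ceh-18 had 11 summits of 13.2 to 20.5 (median 16.7) in replicate 1 and 3 of 13.6 to 15.8 (median 14.5) in replicate 2. Only 1 pair of them lay within 100 bp of each other, at 13.8 in replicate 1 and 15.8 in replicate 2. The median ranked nuclear summit had 17.8 in replicate 1 and 16.8 in replicate 2. The conservative ranking, unlike the pooled one, listed a summit 1511 bp upstream of ceh-18, at 42.4 with an IDR of 67.9%, which had 16.7 in replicate 1 and no summit within 100 bp in replicate 2.

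The gene ceh-6 (WBGene00000431, chrI:8498112-8502604, reverse strand), a POU factor that acts in the excretory cell, in neurons and in the Y-to-PDA conversion, had 4 ranked summits, from 33.7 to 40.8, each with an IDR of 84.8%. The strongest lay 9549 bp past the 3′ end, in an intron of lotr-1, with 26.6 in replicate 1 and no summit within 100 bp in replicate 2. The summit inside the gene, in an untranslated exon at its 3′ end, had 35.2 in the pooled list and 24.5 in replicate 2, with no summit within 100 bp in replicate 1. Another, 2813 bp past the 3′ end in an intron of cdc-5L, had a summit within 100 bp in each replicate, at 21.6 and 16.4 (19.0 ± 3.65, SD, n = 2), though these are more than 100 bp from each other. None of the 4 lay upstream of ceh-6. The replicates alone ranked 8 and 14 summits in its window, and 1 pair lay within 100 bp of each other, 8860 bp upstream, at 21.4 in replicate 1 and 23.3 in replicate 2. That position is not in the pooled ranking and stands in the conservative one at 46.04 with an IDR of 45.6%. The nearest thresholded summit was 27.6 kb away.

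The gene sem-4 (WBGene00004773, chrI:7038900-7048832, forward strand), a zinc finger factor of the Spalt family that acts in neurons, muscle and vulva, had 2 ranked summits, both nearest to its own 5′ end. The stronger lay 3967 bp upstream, with 24.3 in replicate 1 and 30.7 in replicate 2 (27.5 ± 4.53, SD, n = 2), and 57.2 in the pooled list with an IDR of 19.7%. It was the strongest at the 3 genes without a thresholded summit. The other, in an intron 1501 bp past the 5′ end, had 23.6 in replicate 1, 13.96 in replicate 2 and 41.4 in the pooled list, at an IDR of 84.8%. No thresholded summit lay within 146 kb of sem-4.

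**Figure D4:**
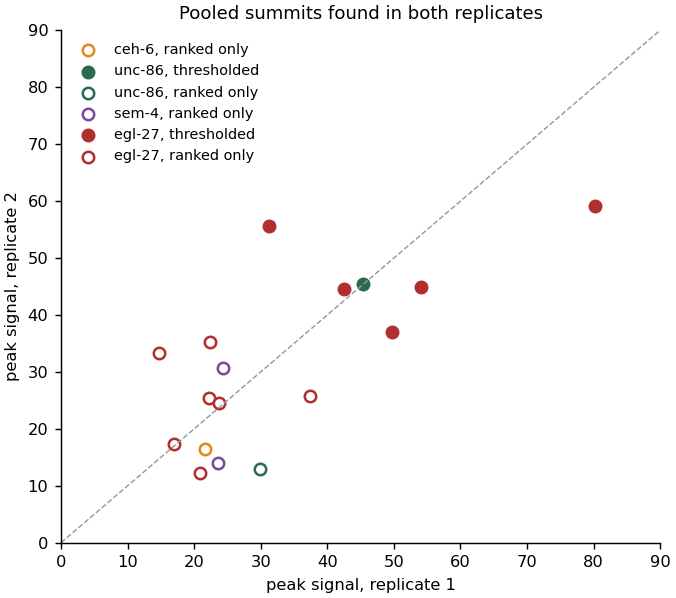
Peak signal in replicate 2 (y axis) against replicate 1 (x axis) for the 17 pooled ranked summits with a summit within 100 bp in both replicates, coloured by gene and filled where thresholded in the pooled list. The dashed line marks equal signal, and the filled unc-86 point lies on it at 45.3 and 45.5.

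Across the 5 genes, 17 of the 23 pooled ranked summits were found in both replicates, 3 in replicate 1 only and 3 in replicate 2 only. Replicate summits were matched to the pooled one, not to each other. They lay more than 100 bp apart at the ceh-6 summit in cdc-5L. The same held at the egl-27 summits 3835 bp upstream and 7748 bp past the most upstream 5′ end. All 6 thresholded summits were among the 17, beside 96.8% of all thresholded nuclear summits. Of the other 17 ranked summits 11 were found in both, beside 56.8% of the ranked nuclear summits below the threshold. The SOX core was within 50 bp of 5 of the 23 summits, against 16.6% of all ranked nuclear summits, and of 1 of the 6 thresholded ones, against 20.2% of thresholded nuclear summits. These shares are near the background. In 4 of the 5 it read CATTGT, the one thresholded case being the third intronic summit of egl-27, where it spans the summit itself. The octamer was within 50 bp of none of the 23, and it lies near 1.34% of all ranked and 2.12% of thresholded nuclear summits, so that 0 of 23 is near the background as well. Within 100 bp, ATGCAAAT was found at 1 of the 23, a summit below the threshold 9359 bp upstream of egl-27. A missing match says only that these letters are not in the window. The GC content within 100 bp was 36.8 to 53.2% at the 6 thresholded summits (median 46.8%), beside a median of 45.8% over all thresholded nuclear summits.

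Other genes of the conversion had thresholded summits in their windows at 4 of 15, against the 13.5% of all genes. Of these, lag-1, the DNA-binding effector of Notch signalling, had the summit inside the gene, 1910 bp past its 5′ end, at 50.6 in replicate 1 and 62.6 in replicate 2 (56.6 ± 8.51, SD, n = 2), and it held CATTGT. The summit in the window of the Notch receptor gene lin-12, at 57.5 and 62.6 (60.1 ± 3.58), lay 6137 bp past the gene and 294 bp upstream of R107.5. At wdr-5.1, a subunit of the histone methylase complex that contains SET-2, the signals were 40.6 and 39.2 (39.9 ± 1.00). The summit was 9684 bp upstream, nearest to npr-15, and passed in the conservative list but in neither replicate alone. The gene sox-2 itself had 3 in its window, against 3 in replicate 1, 1 in replicate 2 and 2 in the conservative list. The strongest, nearest to coh-1, had 106.2 in replicate 1 and 44.4 in replicate 2 (75.3 ± 43.7, SD, n = 2). It passed in replicate 1 and the conservative list and not in replicate 2. The other 11, among them the Hox gene egl-5, the proneural gene ngn-1 and the histone demethylase gene jmjd-3.1, had ranked summits only in the pooled list, with highest signals of 34.0 at egl-5, 49.6 at ngn-1 and 59.7 at jmjd-3.1. In the lists of single replicates, jmjd-3.1 had 1 thresholded summit in replicate 1 and ash-2 had 1 in replicate 2.

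Over all genes, 13.5% had a thresholded summit in the window. Of 8 chromatin factor genes of the MTA and NuRD type, the class to which egl-27 belongs, 2 had one, lin-53 and rba-1. These are neighbours that code for histone-binding proteins, and they share the summit, which lay nearest to hsr-9 and had 27.9 in replicate 1 and 54.8 in replicate 2 (41.3 ± 19.0, SD, n = 2). It passed in replicate 2, and neither in replicate 1 nor in the conservative list. The MTA gene lin-40, the closest relative of egl-27 in the worm, had 5 ranked summits of up to 70.1 and none thresholded in the pooled list, while 1 passed in replicate 1 alone. The histone deacetylase gene hda-1 had 1 ranked summit, at 63.4, and dcp-66 had 1 thresholded in replicate 2 alone.

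Of 13 genes listed by name for a link to unc-86, which was not tested here, 2 had a thresholded summit. These were cat-1 and ttx-3, and in both the summit fell in a tRNA gene. The gene cat-1 codes for the vesicular monoamine transporter. Its summit had 120.3 in replicate 1 and 86.4 in replicate 2 (103.4 ± 24.0, SD, n = 2). That at the homeobox gene ttx-3 had 54.8 and 49.7 (52.3 ± 3.63). The ttx-3 summit passed in replicate 2 and the conservative list and not in replicate 1. The touch receptor genes mec-3, mec-4 and mec-7 had ranked summits only, of up to 33.2, 54.3 and 68.8 in the pooled list. Of 12 genes that act with sem-4 or egl-27 in cell fate, 2 had a thresholded summit in the pooled list. The genes lin-39 and nhr-25 had 1 each in the conservative list only. The zinc finger gene egl-46 had 2 thresholded summits, the stronger lying 3232 bp upstream with 50.2 and 50.5 (50.3 ± 0.233). That in the window of ceh-20, a PBC homeobox cofactor of Hox proteins, was nearest to rfc-4 (45.6 and 66.1, 55.8 ± 14.5). It passed in replicate 2 and the conservative list and not in replicate 1. Of 12 genes of the excretory system or of its development, 2 had one in the pooled list. The gene exc-9 had 1 in the conservative list only. At let-60, the Ras gene, the pooled summit lay 1351 bp upstream with 43.7 and 49.0 (46.3 ± 3.73). This summit passed in replicate 2 and the conservative list and not in replicate 1. In the window of nhr-31 it was nearest to C26B2.7 (35.5 and 36.1, 35.8 ± 0.468), and it passed neither in a single replicate nor in the conservative list. The aquaporin gene aqp-8, known to depend on ceh-6, had ranked summits of up to 62.02 only. The window of lin-3, the EGF-like ligand gene, held a ranked summit of 231.7 with an IDR of 0.001%, which is not in the authors' thresholded list, and so lin-3 counted as having none. Beside the 13.5% of all genes, none of these 5 lists was tested.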

How the data were processed

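ChIP-seq peak lists of 2 biological replicates were used as deposited on the ce11 build. Per the deposited text list, the authors derived a ranked and a thresholded list from each replicate's alignments, and pooled and conservative lists from both. For the aligner and the caller of these peaks, no name or version is given in the sources used here. Peak signal values are the authors' own, 1 per peak, on an unstated scale, and the −log10 IDR (capped at 5) is from the deposited ranked lists. An IDR from a single replicate's list cannot compare the 2 replicates. A low pooled IDR need not mean passing in both. The first intronic egl-27 summit had 0.717% in the pooled list and 88.0% in replicate 2. Both ranked lists of the pooled alignments carry the same label. They were told apart by their number of peaks. The one of 8504 was read as the pooled ranking and the other, of 8525, as the conservative one. Further signal columns of those lists, 2 in each, were not used. Summit positions are the peak start plus the deposited offset, a column of unit other.

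Summits were placed on Ensembl release 115 and NCBI WBcel235, where 99.89% of annotated start codons read ATG and no deposited peak ran past a chromosome end. Tools were Python 3.11.15, numpy 2.4.6 and pandas 2.3.3. Window counting and motif search were tested on simulated data. A replicate summit was matched within 100 bp, and motifs were searched within 50 bp of summits on both strands. The design has no contrast, so no test was run. The members and gene lists were chosen with earlier results of these data known. Of the other lists up to 4 genes with the strongest thresholded summit were named by rule. Other genes, and the B box, were chosen after their values were seen. Alternatives used other windows, lists, thresholds and matching distances.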

Additional observations from a re-analysis of the deposited data

How the results depend on the processing

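No paired analysis was possible because the labels give 1 group. Of 70 alternative values 42 stayed within 1.5 times the reported one. The 2 genes with a thresholded summit became 1 with the gene body only, with the nearest 5′ end alone and with peaks of at least the median signal (2 in each replicate's list). At unc-86 these 3 settings gave 0 in place of 1 (1 in each replicate). At egl-27 the 5 thresholded summits became 3 with the gene body or a window of 2 kb and 1 with peaks of at least the median signal, and 3 to 4 with 1 replicate. Genes with at least as many thresholded summits as egl-27 numbered 5 with 2 kb, 3 with 20 kb, with the gene body and with the conservative list, 8 at an IDR of at most 5%, 1446 with at least the median signal, and 1 to 28 with 1 replicate. Smaller windows and stricter lists hold fewer summits by construction, and for the other shifts the cause was not tested. All genes with a thresholded summit, 2691, became 964 with 2 kb, 1662 with 5 kb, 4536 with 20 kb, 207 with the gene body, 613 with the nearest 5′ end and 1446 with at least the median signal (2276 to 2304 with 1 replicate). The 23 ranked summits became 11 with 2 kb, 8 with the gene body and 51 to 68 in the longer lists of 1 replicate. The octamer rose from 0 to 1 summit with 100 bp to each side. The counts for egl-27 and unc-86 under other settings were added after seeing the data. Depth is unknown, the design has 1 condition, and signal without specific binding was not tested, since no control was analysed here.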
